A study of Homo sapiens with 4 samples.

Results

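TFAP2A, TFAP2B, TFAP2C, PRDM1, NANOS3, DND1, KIT, GABRP and VTCN1 were examined as genes that mark early human germ cells, amnion or both, in H1 human embryonic stem cells collected 2 days into hematopoietic differentiation, in the presence or absence of IWP2. The members were named by gene symbol for their known roles, and each of the 9 symbols matched 1 of the 58365 gene rows of the expression table. H1 is an established line of human pluripotent cells. All 4 libraries came from cells given activin A and BMP4, at 40 ng/ml and 50 ng/ml by the sample labels, while the study's methods give these doses the other way round. The 2 DMSO libraries received the vehicle and the 2 IWP2 libraries received IWP2, a small molecule that blocks Porcupine, the enzyme that prepares Wnt proteins for secretion. The IWP2 dose and whether the 2 libraries of a group came from separate cultures are not given in the sources used here, so p-values measure only the spread between these libraries, which may be technical.

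Primordial germ cells are the precursors of sperm and egg. In human cells they are induced by BMP signaling, under a set of transcription factors that includes SOX17, TFAP2C and PRDM1, and they then switch on RNA-binding proteins such as NANOS3 and DND1. The amnion, the epithelium that encloses the embryo, also forms under BMP signaling from epiblast cells, and AP-2 factors, GABRP and VTCN1 are among the genes used to recognize it. AP-2 factors thus appear in both programs, and the 2 programs cannot be separated by TFAP2A or TFAP2C alone.

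Values are FPKM, fragment numbers scaled by transcript length and by the fragments mapped in the library, so that levels can be set side by side between genes. Tests used log2(FPKM + 1) over the 15980 rows with a mean of at least 0.5 FPKM over the 4 libraries, and a gene was called when its Benjamini-Hochberg adjusted p from limma was under 0.05. Of the 9 members, 6 passed this filter and 3 did not (TFAP2B, DND1 and VTCN1). The libraries held about 18500000 to 22800000 fragments, as estimated from the step that 1 fragment makes in genes with 1 transcript. Among all genes tested, 13.2% were called, 5.81% as higher and 7.35% as lower with IWP2. For comparison with the members, SP5, AXIN2 and LEF1, which are direct targets of Wnt signaling, were all lower with IWP2, with log2 differences of -5.22 ± 0.12, -1.16 ± 0.12 and -3.14 ± 0.15 (SE). With 2 libraries against 2, an exact permutation test of a single gene cannot go below a two-sided p of 0.333, so calls rest on the fit across all genes.

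Of the 6 tested members 2 were called, TFAP2A and GABRP, both higher with IWP2, where 13.2% of all genes were called. TFAP2C and KIT had higher values in both IWP2 libraries than in either DMSO library, and PRDM1 had lower ones, but these 3 did not pass the adjusted threshold. NANOS3 values overlapped between the groups. TFAP2B and VTCN1 were under 0.2 FPKM in every library, and DND1 was between 0.089 and 1.03 FPKM. The median log2 difference of the 6 tested members was 1.01, beside -0.01 over all genes tested. GABRP passed the filter through its IWP2 libraries, so the count and the median are given as descriptions only. The groups did not overlap for 5 of the 6, 4 with higher and 1 with lower IWP2 values, beside 58.6% of all genes tested (27.6% higher and 31% lower).

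**Figure D1:**
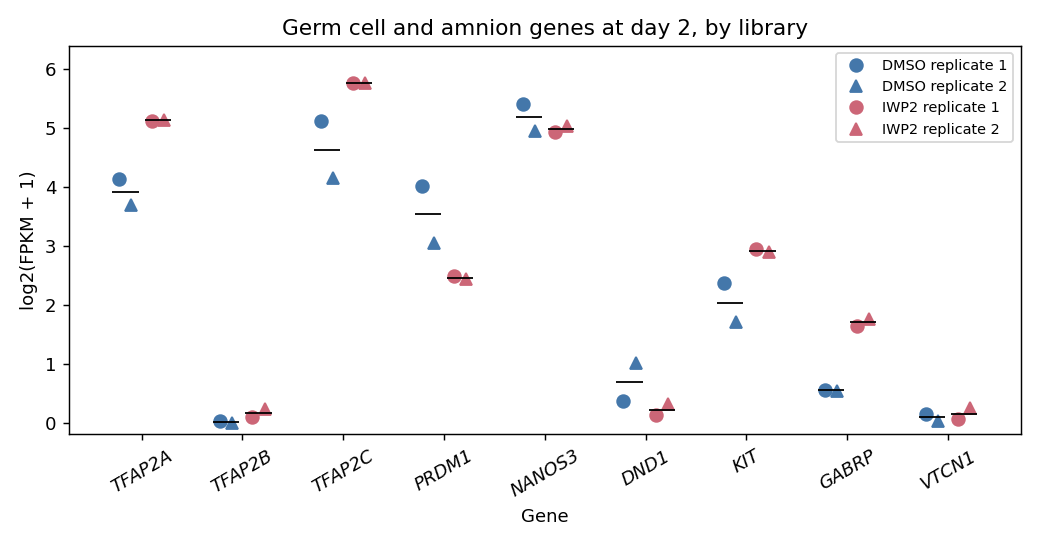
Levels of the 9 members as log2(FPKM + 1) in each library, with circles and triangles for replicates 1 and 2, blue for DMSO, red for IWP2 and a black line at each group's mean. The IWP2 pairs of TFAP2A and TFAP2C almost coincide, while the DMSO pairs of TFAP2C, PRDM1 and KIT lie apart.

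The AP-2 transcription factors were considered first. They bind GC-rich DNA as dimers and act in early ectoderm, amnion, trophoblast, neural crest and germ cells. TFAP2A (ENSG00000137203.10, chr6:10393186-10419659 on GRCh38, minus strand) was at 16.5 and 12.01 FPKM in DMSO replicates 1 and 2, and at 34.0 and 34.2 FPKM in IWP2 replicates 1 and 2. Both IWP2 libraries lay above both DMSO libraries, and the group means of 14.3 ± 3.20 and 34.1 ± 0.111 FPKM (SD, n = 2) differed 2.39-fold. The log2 difference was 1.22 ± 0.16 (SE, limma adjusted p = 0.0118), so TFAP2A rose with IWP2. With no filter on low values the call was lost (limma adjusted p = 0.0837), and a filter leaves the log2 difference as it is. The call was also lost without IWP2 replicate 1 (1.22) or IWP2 replicate 2 (1.21), which had nearly equal values. Without DMSO replicate 1 the log2 difference was 1.43 and without DMSO replicate 2 it was 1.00, so its size depended on the DMSO library. TFAP2A-AS1, an antisense transcript inside the TFAP2A locus, was at 0.483, 0.505, 0.729 and 0.455 FPKM in the same order of libraries.

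TFAP2C (ENSG00000087510.6, chr20:56629302-56639283, plus strand), which is required for human germ cell induction, had the highest mean level of all members, above 85.1% of the genes tested. It was at 33.9 and 16.8 FPKM in the DMSO libraries and at 53.7 and 53.8 FPKM in the IWP2 libraries. The groups did not overlap, but the 2 DMSO libraries differed 2.02-fold from each other. The log2 difference of 1.14 ± 0.32 (SE) did not pass the threshold (limma adjusted p = 0.0829, 95% interval 0.33 to 1.95). Without DMSO replicate 1 it was 1.62 and called (adjusted p = 0.0221), and without DMSO replicate 2 it was 0.65 and not called (adjusted p = 0.0501). The size for TFAP2C thus depended on which DMSO library was used.

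TFAP2B (ENSG00000008196.12, chr6:50818723-50847613, plus strand), the AP-2 factor found in amnion and neural crest, was the lowest member by its mean. It was at 0.0237 FPKM in DMSO replicate 1, listed at 0 in DMSO replicate 2, and at 0.0731 and 0.173 FPKM in the IWP2 libraries. A single fragment on its longest coding transcript of 5773 bases would be worth 0.0076 to 0.00939 FPKM in these libraries, and since DMSO replicate 2 is listed at 0 no fold is given. With no filter on low values its log2 difference of 0.15 was not called (limma adjusted p = 0.307).

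PRDM1 (ENSG00000057657.15, chr6:106086320-106109939, plus strand) encodes BLIMP1, a repressor that shuts down somatic genes in germ cell precursors and is also expressed in early endoderm. It was at 15.2 and 7.32 FPKM in the DMSO libraries and at 4.62 and 4.40 FPKM in the IWP2 libraries. PRDM1 was thus lower in both IWP2 libraries, opposite in direction to the AP-2 factors, with a 2.08-fold gap between the DMSO libraries. The log2 difference was -1.08 ± 0.32 (SE, limma adjusted p = 0.0988, 95% interval -1.90 to -0.25) and was not called. It was -1.56 and called without DMSO replicate 2 (adjusted p = 0.0272), and -0.60 and not called without DMSO replicate 1 (adjusted p = 0.115). ATG5, an autophagy gene that overlaps PRDM1 on the other strand, was at 9.92 to 11.7 FPKM in the 4 libraries, and whether the authors' counting used strand is not given in the sources used here.

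The region around the start site is shown for TFAP2A and GABRP, the members that were called, and for PRDM1, whose values went the other way. The windows come from RefSeq on GRCh38.p14, run from 250 bases before to 50 bases after a start site, and are written 5′ to 3′ on the strand of the gene. They lie at chr6:10419610-10419909 (TFAP2A, minus), chr5:170783475-170783774 (GABRP, plus) and chr6:106086086-106086385 (PRDM1, plus). Capitals mark matches to the AP-2 motif GCCNNNGGC or to the TCF/LEF motifs CTTTGAT and CTTTGTT, the letters bound by the partners of β-catenin, on either strand.
TFAP2A: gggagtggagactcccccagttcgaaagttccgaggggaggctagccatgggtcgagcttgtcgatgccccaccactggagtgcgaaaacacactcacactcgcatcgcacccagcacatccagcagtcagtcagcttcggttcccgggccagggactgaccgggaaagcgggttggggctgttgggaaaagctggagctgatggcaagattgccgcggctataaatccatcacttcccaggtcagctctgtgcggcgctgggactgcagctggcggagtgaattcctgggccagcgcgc
GABRP: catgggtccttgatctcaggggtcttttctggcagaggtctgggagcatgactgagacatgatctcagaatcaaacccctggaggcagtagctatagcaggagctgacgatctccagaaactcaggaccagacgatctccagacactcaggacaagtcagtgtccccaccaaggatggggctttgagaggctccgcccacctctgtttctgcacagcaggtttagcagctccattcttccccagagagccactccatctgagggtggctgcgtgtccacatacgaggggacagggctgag
PRDM1: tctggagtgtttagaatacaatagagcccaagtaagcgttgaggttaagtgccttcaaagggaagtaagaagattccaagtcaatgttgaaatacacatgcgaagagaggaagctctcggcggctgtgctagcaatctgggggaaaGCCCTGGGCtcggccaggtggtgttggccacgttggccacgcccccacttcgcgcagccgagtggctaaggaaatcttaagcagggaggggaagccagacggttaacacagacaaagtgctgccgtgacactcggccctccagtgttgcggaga
The TFAP2A and GABRP windows held no match, and the PRDM1 window held 1 AP-2 match. RefSeq windows were found for 8 of the 9 members, all but TFAP2C, and gave 12 windows because TFAP2A, PRDM1 and NANOS3 have several start sites. An AP-2 match was present in 5 of the 12 windows, those of PRDM1, NANOS3 and VTCN1, beside 23.2% of all 35116 windows of the same length. No TCF/LEF match was present in the 12 windows, beside 2.62% of all windows for CTTTGAT and 5.2% for CTTTGTT. A match is a run of letters and not a measured binding site, and no match overlapped another.

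The RNA-binding proteins of the germ line came next. NANOS3, which protects migrating germ cells from death, was the most abundant member in the DMSO libraries. NANOS3 (ENSG00000187556.7, chr19:13862063-13880757, plus strand) was at 41.7 and 29.95 FPKM in the DMSO libraries and at 29.7 and 32.0 FPKM in the IWP2 libraries. The groups overlapped. The log2 difference was -0.19 ± 0.17 (SE, limma adjusted p = 0.518), with a 95% interval of -0.63 to 0.24, and its sign depended on the library left out, from -0.42 without DMSO replicate 2 to 0.04 without DMSO replicate 1. DND1 (ENSG00000256453.1, chr5:140670794-140673586, minus strand), which guards germ cell transcripts from microRNAs, was at 0.287 and 1.03 FPKM in the DMSO libraries and at 0.089 and 0.241 FPKM in the IWP2 libraries. The IWP2 values lay below the DMSO values, but DND1 missed the filter with a mean of 0.411 FPKM, and with no filter its log2 difference of -0.48 was not called (limma adjusted p = 0.479). The DND1 locus lies wholly within WDR55 on the other strand, which was at 10.9 to 11.8 FPKM, so without a strand-aware count low DND1 values cannot be told apart from reads of WDR55.

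KIT (ENSG00000157404.15, chr4:54657918-54740715, plus strand) is the receptor for stem cell factor and is carried by germ cells and by blood progenitors. It was at 4.15 and 2.26 FPKM in the DMSO libraries and at 6.74 and 6.43 FPKM in the IWP2 libraries. Both IWP2 libraries were above both DMSO libraries, with a 1.84-fold gap between the DMSO libraries. The log2 difference of 0.89 ± 0.24 (SE, limma adjusted p = 0.0801, 95% interval 0.27 to 1.51) was not called. It was called without DMSO replicate 1 (1.22, adjusted p = 0.0459) and fell to 0.56 without DMSO replicate 2 (adjusted p = 0.126). KITLG, which encodes the ligand of KIT, was at 3.98 and 4.15 FPKM with DMSO and at 5.04 and 4.801 FPKM with IWP2 and was not called (adjusted p = 0.314). Of the 10 genes listed for KIT signaling, 2 were called, both lower with IWP2, where 13.2% of all genes tested were called. They were PIK3R1, a regulatory subunit of phosphoinositide 3-kinase, with means of 7.99 and 2.13 FPKM (log2 difference -1.53 ± 0.16, SE, adjusted p = 0.00688), and SH2B3, an adaptor that restrains receptor signaling, with means of 9.34 and 5.90 FPKM (-0.58 ± 0.11, adjusted p = 0.0304). With the replicate number as a block the SH2B3 call was lost (adjusted p = 0.0536) and SPRY1, an inhibitor of receptor tyrosine kinase signaling, was called lower (-0.73, adjusted p = 0.0419, against 0.0848 without the block). No gene of the KIT list was called when any 1 library was left out.

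The surface genes used to recognize amnion were GABRP and VTCN1. GABRP (ENSG00000094755.16, chr5:170763350-170814047, plus strand), the pi subunit of a GABA receptor, was at 0.467 and 0.455 FPKM in the DMSO libraries and at 2.13 and 2.40 FPKM in the IWP2 libraries. The values within each group were close together, and the means of 0.461 ± 0.00848 and 2.27 ± 0.188 FPKM (SD, n = 2) differed 4.92-fold. The difference was 1.16 ± 0.16 (SE, limma adjusted p = 0.0146) on the log2(FPKM + 1) scale, and 2.07 with a pseudocount of 0.1, since a pseudocount of 1 compresses low values. GABRP was tested only because its IWP2 libraries brought its mean over the 0.5 FPKM filter, so a difference was built into its selection, and the adjusted p is given as a description and not as support for a rise. The call was lost when any 1 library was left out (adjusted p = 0.0625 to 0.129) and with no filter on low values (adjusted p = 0.0718). AC008514.1, an antisense transcript over part of GABRP, was at 1.37 and 1.18 FPKM with DMSO and at 0.626 and 3.34 FPKM with IWP2, so it differed between the IWP2 libraries where GABRP did not. VTCN1 (ENSG00000134258.16, chr1:117143587-117210960, minus strand), an immune checkpoint ligand, was at 0.113 and 0.0241 FPKM with DMSO and at 0.039 and 0.189 FPKM with IWP2. The groups overlapped, a single fragment would be worth 0.0161 to 0.0199 FPKM on the longest coding transcript, and with no filter the log2 difference of 0.06 was not called (limma adjusted p = 0.76).

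**Figure D2:**
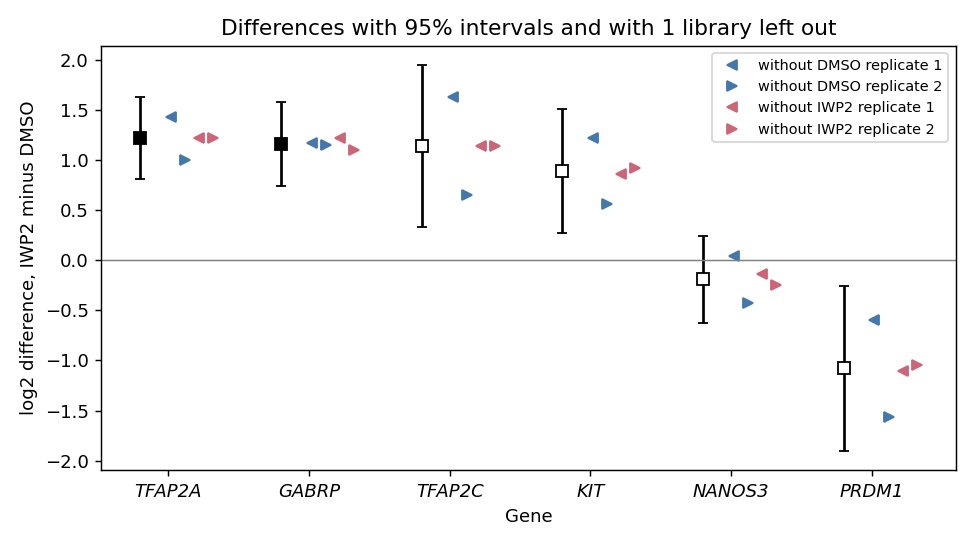
Log2 difference, IWP2 minus DMSO, for the 6 tested members. Black squares with bars are the fitted values with 95% intervals, filled where called, and triangles are the values with 1 library left out (blue for a DMSO library, red for an IWP2 library). TFAP2C, KIT and PRDM1 move most with the DMSO library that is left out, TFAP2A lies between 1.00 and 1.43, and GABRP stays between 1.10 and 1.22.

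The order of the levels differed between the groups. In the DMSO libraries the means ran from NANOS3 (35.8 FPKM) through TFAP2C (25.3), TFAP2A (14.3), PRDM1 (11.3), KIT (3.20), DND1 (0.658), GABRP (0.461) and VTCN1 (0.0683) to TFAP2B (0.0119). Neighbours whose DMSO libraries overlapped were NANOS3 and TFAP2C, TFAP2A and PRDM1, and DND1 and GABRP. In the IWP2 libraries the order was TFAP2C (53.7 FPKM), TFAP2A (34.1), NANOS3 (30.9), KIT (6.58), PRDM1 (4.51), GABRP (2.27), DND1 (0.165), TFAP2B (0.123) and VTCN1 (0.114), and only the last 3 overlapped with a neighbour.

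Ratios between 2 members within a library do not depend on how the libraries were scaled. The pairs were picked after the values were seen, so they are given without a test. TFAP2C was 2.22 and 2.29 times the level of PRDM1 in the DMSO libraries, and 11.6 and 12.2 times in the IWP2 libraries. The ratio was close within each group although both genes differed about as much between the DMSO libraries as between the groups. KIT over TFAP2C was similar in all 4 libraries, at 0.123, 0.135, 0.125 and 0.12. NANOS3 over TFAP2C was 1.23 and 1.79 with DMSO and 0.554 and 0.595 with IWP2. NANOS3 was therefore above TFAP2C in both DMSO libraries and below it in both IWP2 libraries. Other pairs were also less close between the DMSO libraries. TFAP2A over PRDM1 was 1.09 and 1.64 with DMSO and 7.38 and 7.78 with IWP2. NANOS3 over PRDM1 was 2.74 and 4.09 with DMSO and 6.44 and 7.28 with IWP2. TFAP2A over TFAP2C was 0.488 and 0.717 with DMSO and 0.634 and 0.636 with IWP2.

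The gap between the DMSO libraries was shared by several germ cell genes. On the log2(FPKM + 1) scale 3 of the 6 tested members (TFAP2C, PRDM1 and KIT) were more than 1.5-fold higher in DMSO replicate 1 than in replicate 2 and none was lower, beside 4.62% of all genes higher and 3.66% lower. Among 17 tested genes of a primordial germ cell list, 4 were more than 1.5-fold higher in DMSO replicate 1 (NANOG, PDPN, EPCAM and CXCR4) and none was lower. NANOG, a pluripotency factor kept on in germ cells, was at 23.0 and 9.54 FPKM, and PDPN, a surface glycoprotein of early germ cells, was at 114 and 67.2 FPKM. SOX17, the factor that starts the human germ cell program and also marks endoderm, was at 155 and 104 FPKM. Among endoderm genes, FOXA2 was also more than 1.5-fold higher in DMSO replicate 1, at 6.28 and 3.49 FPKM, whereas GSC was lower there, at 18.8 and 31.4 FPKM. On the same scale 0 of the 6 tested members were more than 1.5-fold apart between the IWP2 libraries, whereas in FPKM the low values of TFAP2B, DND1 and VTCN1 were, with ratios of replicate 1 to replicate 2 of 0.422, 0.369 and 0.207. In bulk RNA, fewer cells of a type and less RNA per cell cannot be told apart.

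**Figure D3:**
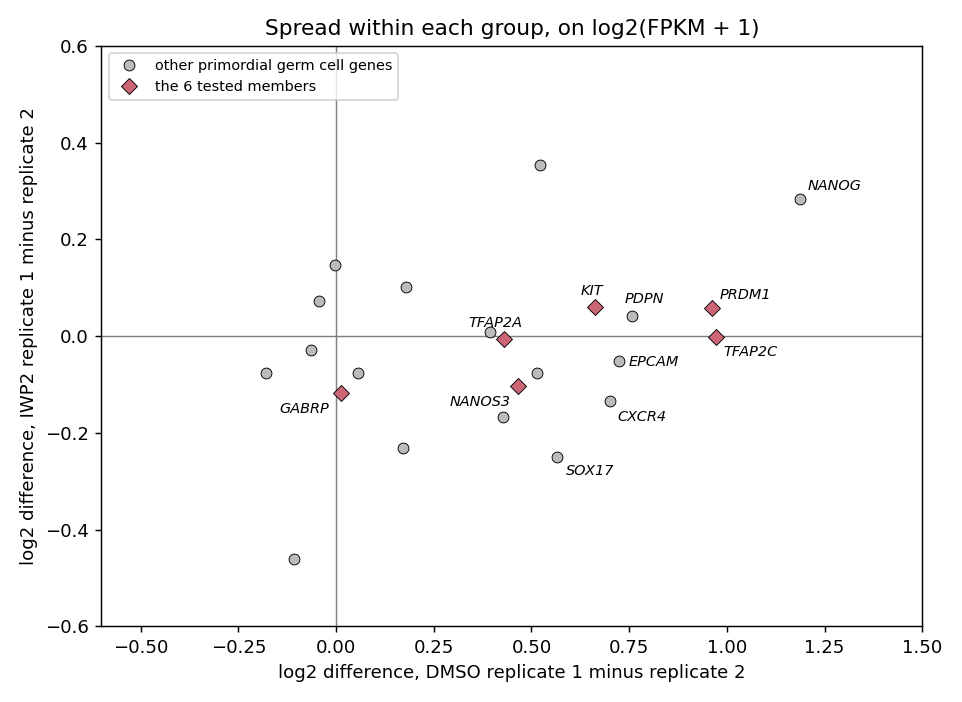
Each point is a gene, with the log2 difference between DMSO replicates 1 and 2 on the horizontal axis and between IWP2 replicates 1 and 2 on the vertical axis. Red diamonds are the 6 tested members and grey circles are 17 other primordial germ cell genes. TFAP2C, PRDM1 and KIT lie to the right with NANOG and PDPN, while GABRP lies near 0 on the horizontal axis.

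The other genes of both programs were read from lists. Counts of calls in each list stand beside 5.81% called higher and 7.35% called lower among all genes tested. In the primordial germ cell list of 22 genes, 17 were tested, 3 were called higher and 1 was called lower with IWP2, and the median log2 difference was 0.42 beside -0.01 over all genes tested. The genes called higher were LAMA4, a laminin chain (means 0.72 and 6.24 FPKM, log2 difference 2.07 ± 0.17, SE, limma adjusted p = 0.00348), PRDM14, a repressor of differentiation in pluripotent and germ cells (1.49 and 7.20 FPKM, 1.72 ± 0.14, adjusted p = 0.00383), and POU5F1, a pluripotency factor that germ cells retain (661 and 1849 FPKM, 1.496 ± 0.15, adjusted p = 0.00559). CXCR4, a chemokine receptor of migrating germ cells and of endoderm, fell from 19.3 to 4.16 FPKM (log2 difference -1.94 ± 0.25, adjusted p = 0.0109). SOX17 was at 155 and 104 FPKM with DMSO and at 79.7 and 94.9 FPKM with IWP2 and was not called (log2 difference -0.54 ± 0.21, adjusted p = 0.167). With 1 library left out, 0 to 6 genes of this list were called. EPCAM, an epithelial adhesion protein also found on pluripotent cells, was not called (0.97, adjusted p = 0.0623) but was called higher with the replicate number as a block (adjusted p = 0.047).

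Genes of later germ cells were mostly not detected above the filter. Of 14 such genes, 12 had a mean over the 4 libraries under 0.5 FPKM, and 2 of these, MAEL and TDRD9, were listed at 0 in all 4 libraries. PIWIL2, which acts in the piRNA pathway, was the 1 gene called, at means of 1.40 and 3.39 FPKM (log2 difference 0.87 ± 0.17, SE, limma adjusted p = 0.0318), and the call was lost when any 1 library was left out. Among the markers fixed to check the germ cell label, 7 of 10 had a mean of at least 1 FPKM, while DND1, DPPA3 and CD38 had means under 0.5 FPKM. These markers include the members TFAP2C, PRDM1, NANOS3, KIT and DND1, so the check is not independent of them. DPPA3, an early germ cell gene, was at 0.743 and 0.91 FPKM with DMSO and at 0.0964 and 0.0565 FPKM with IWP2.

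Amnion genes moved in both directions. Of 20 listed genes 19 were tested, and 3 were called higher and 4 lower with IWP2, beside 5.81% and 7.35% of all genes tested. The median log2 difference of the tested amnion genes was -0.09. Those called higher were IGFBP3, a binding protein for insulin-like growth factors (means 1.84 and 17.4 FPKM, log2 difference 2.70 ± 0.17, SE, limma adjusted p = 0.00153), KRT7, a keratin of simple epithelia (0.849 and 7.03 FPKM, 2.10 ± 0.19, adjusted p = 0.0047), and WNT6, a Wnt ligand (0.708 and 2.66 FPKM, 1.10 ± 0.20, adjusted p = 0.0266). Those called lower were TNC, a matrix protein (86.9 and 7.09 FPKM, -3.42 ± 0.19, adjusted p = 0.0012), TBX3 (74.0 and 10.9 FPKM, -2.65 ± 0.10, adjusted p = 0.000439), CDX2 (5.35 and 0.189 FPKM, -2.42 ± 0.16, adjusted p = 0.00179) and HAND1. HAND1, a factor of amnion and of extraembryonic and lateral mesoderm, was at 234 and 322 FPKM with DMSO and at 101 and 119 FPKM with IWP2 (-1.32 ± 0.18, adjusted p = 0.0126). Several of these genes, TNC, TBX3, CDX2 and HAND1 among them, are also expressed in mesoderm. ISL1 and GATA3, the other amnion factors in the marker set, were not called, with log2 differences of -0.09 ± 0.12 and -0.20 ± 0.10 (SE, adjusted p = 0.69 and 0.253). With 1 library left out, 3 to 7 amnion genes were called.

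The amnion label was thus carried by only part of its markers. Of the 8 amnion markers 6 had a mean over the 4 libraries of at least 1 FPKM, and TFAP2B and VTCN1 were under 0.5 FPKM. TFAP2A, TFAP2B, GABRP and VTCN1 are members themselves, so the check is not independent of them. GABRP and KRT7 reached 1 FPKM only through IWP2, with DMSO means of 0.461 and 0.849 FPKM. Trophoblast, which shares AP-2 factors, GATA3 and KRT7 with amnion, was checked in the same way. None of its 6 markers reached 0.5 FPKM, their summed level was 0.181 to 0.585 FPKM in the 4 libraries, and ELF5 was listed at 0 in all of them. Of the 18 listed trophoblast genes only PGF and TEAD4 were tested, and PGF, a growth factor of the VEGF family, was called lower (means 14.0 and 6.19 FPKM, log2 difference -1.06 ± 0.14, SE, limma adjusted p = 0.0118), a call held in 1 of the 4 fits with 1 library left out.

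Partners of the AP-2 factors were also examined. Of 9 listed genes 8 were tested, and TFAP2D was listed at 0 in all 4 libraries. CITED4, a coactivator that bridges AP-2 factors to CBP and p300, was called higher (means 2.16 and 6.93 FPKM, log2 difference 1.32 ± 0.18, SE, limma adjusted p = 0.0138). KCTD1, which represses AP-2 activity, was called lower (8.13 and 4.65 FPKM, -0.69 ± 0.12, adjusted p = 0.0245). Neither was called when any 1 library was left out. EP300, CREBBP, CITED1, CITED2, KCTD15 and TFAP2E were not called. Among all genes tested 13.2% were called.

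Markers of several other cell types also differed between the groups, in both directions. The summed level of the 3 pluripotency markers POU5F1, SOX2 and NANOG was 581 to 774 FPKM with DMSO and 1907 to 1924 FPKM with IWP2, and SOX2 alone went from 0.193 and 0.174 FPKM to 35.6 and 36.1 FPKM. The 4 mesoderm markers T, MIXL1, EOMES and MESP1 summed to 485 to 563 FPKM with DMSO and to 44.2 to 48.5 FPKM with IWP2. T, which encodes Brachyury, was at 21.6 and 18.5 FPKM with DMSO and at 9.40 and 10.4 FPKM with IWP2. All 12 tested genes of the mesoderm and Wnt target list were called lower, led by MESP1 (means 61.1 and 0.165 FPKM), SP5 (50.1 and 0.371 FPKM) and LGR5 (24.6 and 0.0908 FPKM), and 8 to 12 with 1 library left out. The endoderm markers FOXA2, SOX17 and HHEX summed to 110 to 163 FPKM with DMSO and to 80.2 to 95.6 FPKM with IWP2. SOX17, which was not called, made up nearly all of these sums, and HHEX fell from 2.08 and 2.30 to 0.269 and 0.376 FPKM. Of 7 tested endoderm genes 6 were called lower, led by CER1 (means 1830 and 36.4 FPKM), GSC (25.1 and 0.243 FPKM) and FOXA2 (4.89 and 0.259 FPKM). With 1 library left out, 1 to 5 endoderm genes were called. The 5 endothelial and blood markers, cells in which KIT is also found, summed to less than 1 FPKM in every library and GATA1 was listed at 0. Of 10 genes on the endothelial and blood list 3 were tested, and RUNX1 (means 2.43 and 0.28 FPKM) and KDR (56.8 and 37.1 FPKM) were called lower, and neither was called when any 1 library was left out (limma adjusted p = 0.0509 to 0.101 and 0.0631 to 0.167). The part of these markers in the results for TFAP2A, TFAP2C, PRDM1, KIT and GABRP was not tested.

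**Figure D4:**
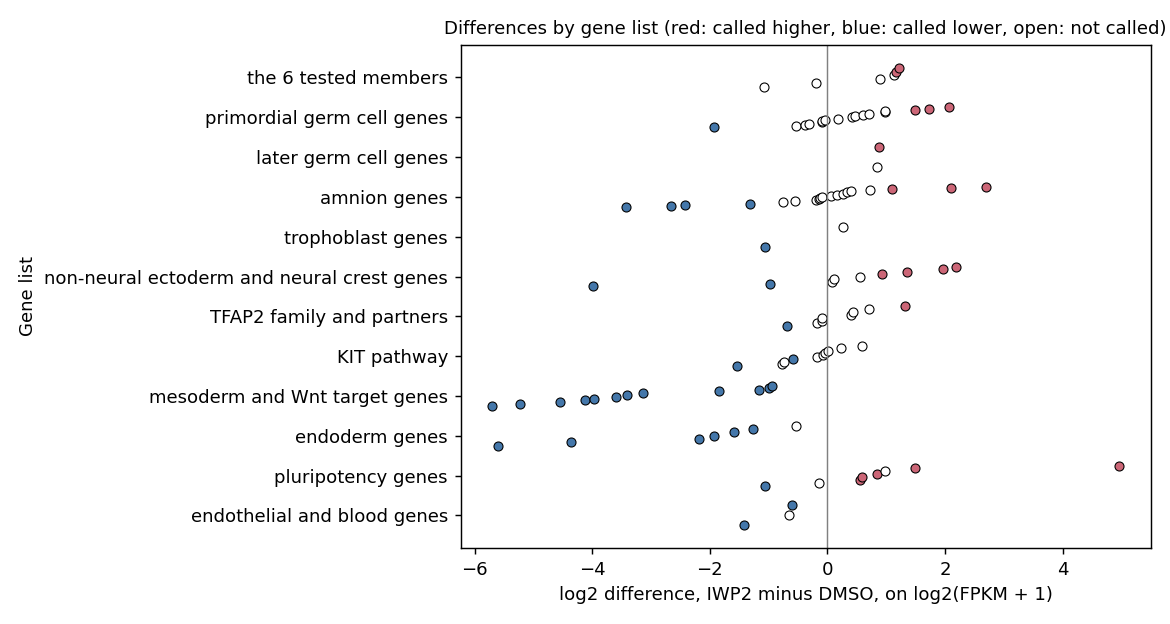
Log2 difference, IWP2 minus DMSO, of every tested gene by list, on the log2(FPKM + 1) scale, with red points called higher, blue points called lower and open points not called. The germ cell and amnion lists hold points on both sides of 0, whereas all 12 mesoderm and Wnt target points lie below it.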

How the data were processed

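RNA-seq of 4 libraries was analysed, 2 with DMSO and 2 with IWP2, grouped by their titles. Columns are headed with a minus or plus sign for IWP2 and a replicate number, and the minus columns were read as the DMSO group. Values were deposited as FPKM per gene and library. The unit is not written in the table and was taken from the values, which sum to 616418 to 653850 per library and step with transcript length. Per the labels, the submitters' processing notes name BWA, Bowtie and RSEM, with no roles or versions, and the build hg19, but 97.3% of the rows that match GENCODE v29 by gene ID carry its GRCh38 coordinates, which are used here. Read counts were not used here, so fragment numbers are estimates.

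Rows with a mean of 0.5 FPKM or more were tested on log2(FPKM + 1) with limma 3.58.1 in R 4.3.3 (empirical Bayes with a mean-variance trend), adjusted by Benjamini-Hochberg over all 15980 rows. The fit was tried on simulated data with independent noise for each gene and changes added only to genes above a set level. That setting holds no gap shared by genes between libraries, so it is not support for any call here. Genes under 0.5 FPKM in both libraries of a group were tested only through the other group, so their calls are descriptions only. The members and lists were chosen with earlier results of these data known. Named genes were all members and, per list, up to 3 called higher and up to 3 called lower with the largest difference, plus fixed cell type markers. Other genes named for a gap between DMSO libraries, a zero or an overlapping locus were chosen after their values were seen. Alternatives varied the pseudocount, filter, scaling, trend, replicate block and the libraries included.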

Additional observations from a re-analysis of the deposited data

How the results depend on the processing

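The number of genes called, 2104 in the reported fit, stayed between 1849 and 2147 with another pseudocount, a filter at 1 FPKM, 3 other scalings, no trend or the replicate block. It was 381 with no filter on low values, where 28917 rows were tested and 0 members were called, and 179 to 897 with 1 library left out, where 0 to 3 members were called (2 in the reported fit). In the fits with 1 library left out, the lone library of a group is assumed to vary like the other group. The share of calls that were higher, 44.2% in the reported fit, was 41.4% to 50.7% under the other scalings, 31.0% with no filter, 43.2% and 35.3% without DMSO replicates 1 and 2, and 22.9% and 21.5% without IWP2 replicates 1 and 2, and the median of all genes moved by less than 0.1 on the log2 scale under each scaling. The replicate numbers mark no stated batch, and deviations of same-numbered libraries correlated at 0.142 across genes. The replicate block gave 1901 calls, with the same 2 members called. Among the list genes it changed the calls of SH2B3 (lost), SPRY1 and EPCAM (gained) and of no other, and it gave adjusted p of 0.053 for TFAP2C, 0.0617 for PRDM1 and 0.0591 for KIT. TFAP2A and GABRP kept their direction in all 12 alternatives, but both IWP2 values lay above both DMSO values. For groups that do not overlap, another pseudocount, filter, trend or block, or a library left out, cannot reverse the direction. Only the scalings could have reversed it. No count model was run, since the values are FPKM. Over the list genes and all alternatives, 975 refits kept the side of the threshold, 120 lost a call and 11 gained one, and no called value changed sign. Low values limit TFAP2B, DND1 and VTCN1, which missed the filter, and also the fold of GABRP, whose DMSO libraries were under 0.5 FPKM. The cause of these changes was not tested.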

Other observations

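AP-2 factors also act in non-neural ectoderm and neural crest, and genes of these tissues moved in both directions. Of 15 listed genes 9 were tested, 4 were called higher and 2 lower with IWP2, and the median log2 difference was 0.55. FOXD3, a factor of pluripotent cells and neural crest, was at 0.0238 and 0.0805 FPKM with DMSO and at 3.66 and 3.87 FPKM with IWP2 (log2 difference 2.18 ± 0.16, SE, limma adjusted p = 0.00287). FOXD3 passed the 0.5 FPKM filter only through its IWP2 libraries. Its adjusted p is therefore a description and not support for a rise. GRHL2 and GRHL3, factors of epithelial surfaces, rose from means of 2.12 to 11.1 FPKM (1.96 ± 0.15, adjusted p = 0.00332) and from 3.66 to 10.5 FPKM (1.36 ± 0.28, adjusted p = 0.0394). MSX1, a BMP target of mesoderm and neural crest, fell from 33.0 to 1.13 FPKM (-3.99 ± 0.15, adjusted p = 0.000439), and ETS1 fell from 34.5 to 17.0 FPKM (-0.98 ± 0.12, adjusted p = 0.00993). KRT5 and KRT14, keratins of stratified epidermis, were listed at 0 in all 4 libraries. With 1 library left out, 1 to 5 genes of the list were called.

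Among 8 pluripotency genes 5 were called higher with IWP2 and 1 lower. SOX2 was among those called higher and passed the filter only through its IWP2 libraries, so that call is a description. DPPA4, a chromatin factor of pluripotent cells, went from a mean of 81.1 to 147 FPKM (0.85 ± 0.07, SE, limma adjusted p = 0.00409), whereas TDGF1, a co-receptor for Nodal, went from 212 to 101 FPKM (-1.06 ± 0.08, adjusted p = 0.0034). With 1 library left out, 1 to 5 of these genes were called.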
